A study of Homo sapiens with 4 samples.

Results

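The 10 genes described here encode the sensors through which a human cell detects unusual RNA or DNA in itself, together with the adaptors and the RNA-editing enzyme that work with them. They were taken by name: DDX58, IFIH1, DHX58 and TLR3 as RNA sensors, MAVS as the adaptor of the signalling helicases, EIF2AK2, ADAR and ZBP1 as binders of double-stranded or Z-form nucleic acid, and MB21D1 and TMEM173 as the DNA sensor and its adaptor. All 10 were found among the 40877 single-gene names of the deposited gene table, and no joined name of several genes held any of them. They were measured by 5′ single-cell RNA sequencing (10x Genomics) in H1299, a non-small cell lung cancer line, and HCT116, a colorectal cancer line. Each line received either DMSO, the solvent, or decitabine (DAC, a DNA methyltransferase inhibitor) at 500 nM over 72 h with the histone deacetylase inhibitor SB939 at 500 nM over 18 h. Medium renewal is given as 24 h for every group. The DMSO libraries are called control and the others treated or DAC+SB. There was 1 library for every line and treatment, 4 in all, from cells at passage 5 to 10. Differences between libraries therefore lack a replicate check, no p-value was computed, and culture, capture and treatment cannot be told apart.

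The control and treated libraries held 3578 and 3726 cells of H1299 and 3658 and 4327 cells of HCT116, with 38927267 to 64524196 counts of genes and transposable elements (TE) each. The treated HCT116 library stood apart, with a median of 8449.0 counts per cell against 15784.5 to 17369.5 in the others, and 1086 of its cells had over 25% mitochondrial counts. The lists of 10 line markers separated the lines: the H1299 list summed to 3716 and 1471 counts per 1000000 in H1299 against 325 and 370 in HCT116, and the HCT116 list to 173 and 95.4 in HCT116 against 27.1 and 25.3 in H1299. NNMT was at 0 in both HCT116 libraries and KRT20 in both H1299 libraries. Cell barcodes found in 2 libraries numbered 131, which covers 262 of the 15289 cells. Without those cells the bound for MB21D1 in HCT116 was 4.39 (log2) in place of 4.42, and the other ratios of the 10 genes stayed within their counting intervals.

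RIG-I (DDX58) and MDA5 (IFIH1) are helicases that bind double-stranded RNA in the cytoplasm and signal through MAVS on mitochondria to the kinase TBK1 and the factors IRF3 and IRF7, which switch on interferon genes. LGP2 (DHX58) is a related helicase without the signalling domains, TLR3 reads double-stranded RNA in endosomes, and cGAS (MB21D1) senses DNA and signals through STING (TMEM173). PKR (EIF2AK2) halts translation when it binds double-stranded RNA, and ADAR1 (ADAR) edits adenosine to inosine in such RNA and so keeps a cell's own transcripts from being sensed. DNA methyltransferase inhibitors are known to release TE transcription, some of which forms double-stranded RNA, and many of these sensors are themselves interferon-stimulated genes.

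Since interferon induction acts through a promoter element, the windows around the annotated starts of these genes were searched on both strands for GAAA, any 2 bases and again GAAA, the core of the interferon-stimulated response element. RefSeq windows (GRCh38.p14), from 250 bases before to 50 after a start, were matched for 6 of the 10 genes, as 8 windows, 3 of them for ADAR. DHX58, MB21D1, TMEM173 and ZBP1 were not matched. The core was present in 1255 of 35116 windows of this length, 3.57%, and in the windows of EIF2AK2, IFIH1 and TLR3. These windows are shown because they are the ones that carry the element, which is in capitals. Each reads along its gene's strand: EIF2AK2 at chr2:37156931-37157230 (minus), IFIH1 at chr2:162318635-162318934 (minus) and TLR3 at chr4:186068906-186069205 (plus).
EIF2AK2: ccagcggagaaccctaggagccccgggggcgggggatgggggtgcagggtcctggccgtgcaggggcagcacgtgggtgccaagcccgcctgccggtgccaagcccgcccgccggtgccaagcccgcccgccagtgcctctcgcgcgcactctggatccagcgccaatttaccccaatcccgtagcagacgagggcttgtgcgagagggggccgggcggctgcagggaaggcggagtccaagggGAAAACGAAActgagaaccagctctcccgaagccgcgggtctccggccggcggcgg
IFIH1: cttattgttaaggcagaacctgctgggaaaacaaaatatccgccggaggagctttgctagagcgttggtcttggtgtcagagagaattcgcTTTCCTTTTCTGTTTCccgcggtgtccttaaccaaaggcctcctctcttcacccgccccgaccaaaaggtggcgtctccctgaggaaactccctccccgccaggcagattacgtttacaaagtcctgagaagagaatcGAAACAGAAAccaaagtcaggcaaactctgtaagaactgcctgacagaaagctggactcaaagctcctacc
TLR3: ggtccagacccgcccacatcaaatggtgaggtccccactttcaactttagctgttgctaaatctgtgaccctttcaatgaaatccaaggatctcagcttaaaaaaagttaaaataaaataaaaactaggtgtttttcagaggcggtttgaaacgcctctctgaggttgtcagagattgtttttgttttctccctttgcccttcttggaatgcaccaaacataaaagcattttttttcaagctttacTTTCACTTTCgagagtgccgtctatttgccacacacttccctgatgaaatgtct

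The EIF2AK2 window held 1 match, on the gene's strand. IFIH1 held 3 matches, 1 on its strand and 2 on the other that overlap each other and are drawn as 1 run of capitals, and TLR3 held 1 on the other strand. Windows of DDX58, MAVS and ADAR held none, which says only that these letters are not in those windows. CpG, the dinucleotide that DNA methyltransferases methylate, occurred 30 times in the EIF2AK2 window, 27 in DDX58 and 34 in MAVS, against a median of 14 over all windows. It occurred 12 times in IFIH1, 13, 14 and 14 times in the ADAR windows and 5 times in TLR3. A match describes the sequence. Methylation and binding were not measured.

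Levels are given as counts per 1000000 gene and TE counts of a library (CPM). They are not scaled to gene length and are compared between libraries, not between genes. Ratios are DAC+SB over DMSO on the log2 scale, and every interval is a 95% counting interval that covers counting error only. Ratios were read against all genes that reached 100 counts in whichever library of a line had more. The median log2 ratio of those genes was -0.07 in H1299 (14610 genes) and -0.23 in HCT116 (13539 genes), so a gene at the HCT116 median sits a little below 0.

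Of the 10 genes, 8 reached 100 counts in H1299 and 7 in HCT116. TLR3 and ZBP1 did not reach it in either line, nor MB21D1 in HCT116, and these enter no count of genes past a fold or median below. DHX58 reached it in the treated library alone in both lines, and DDX58, IFIH1 and TMEM173 in HCT116 reached it in the control library alone, so their passing favours the direction in which they differ. DHX58 was the only one at least 4-fold higher, 1 of 8 in H1299 and 1 of 7 in HCT116. These shares are near the 11.0% and 9.63% of all genes. None was at least 4-fold lower in H1299, where 0.349% of genes were, and EIF2AK2 and TMEM173 were in HCT116, where 3.69% were. At 2-fold, 1 was higher (DHX58) and 2 were lower (EIF2AK2, MB21D1) in H1299, against 18.3% and 7.34% of genes. In HCT116 1 was higher (DHX58) and 3 were lower (ADAR, EIF2AK2, TMEM173), against 16.2% and 20% of genes. The median log2 ratio of the genes that reached 100 counts was -0.38 in H1299 and -0.83 in HCT116, and over the 10 and 9 genes with any ratio or bound it was -0.20 in both lines. In HCT116 the genes added were TLR3 (2 and 5 counts, log2 2.01, -0.60 to 5.40) and MB21D1 (0 and 40 counts, a bound of 4.42 with no interval). Whether the HCT116 median was the lower one thus depended on entering genes with few counts. Neither median was tested. Relative to the median gene, the HCT116 log2 ratios were -2.53 for EIF2AK2, -2.01 for TMEM173, -1.42 for ADAR, -0.60 for MAVS and 2.65 for DHX58.

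**Figure D1:**
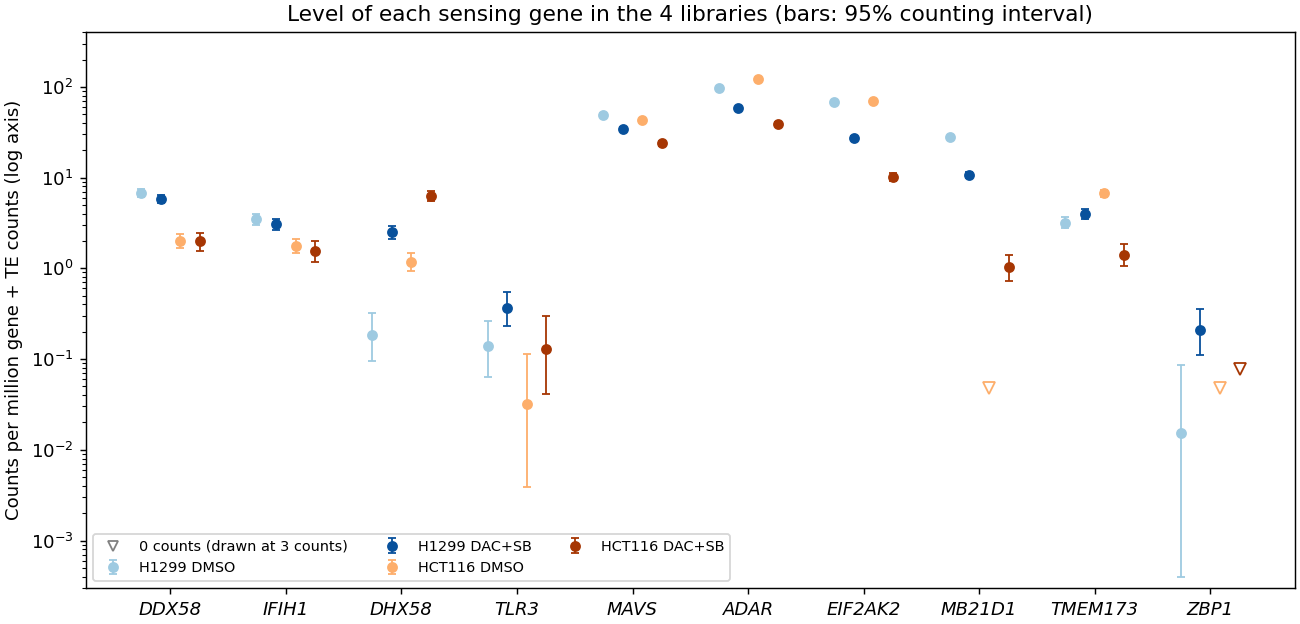
Counts per 1000000 gene and TE counts (CPM, log axis) of each of the 10 sensing genes in the 4 libraries, with 95% counting intervals; open triangles mark 0 counts, drawn at the value of 3 counts. DHX58 is higher in each DAC+SB library than in its DMSO library, whereas ADAR, EIF2AK2 and MAVS are lower in both, and MB21D1 has 0 counts in HCT116 DMSO only.

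The pair of signalling RNA helicases differed more between lines than with treatment. DDX58 (GRCh38, chr9:32455705-32526324, minus strand) had 6.76 CPM in control H1299, 5.77 in treated H1299, 2.0 in control HCT116 and 1.98 in treated HCT116. Its H1299 levels lay above both HCT116 levels, and the HCT116 libraries did not differ beyond counting error. The log2 ratio was -0.23 (-0.43 to -0.02) in H1299 and -0.01 (-0.44 to 0.41) in HCT116. Relative to the median gene the HCT116 value was 0.22. Under DMSO, DDX58 was 3.39-fold and IFIH1 1.95-fold higher in H1299 than in HCT116.

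IFIH1 (chr2:162267079-162318703, minus strand) had 3.46 CPM in control H1299, 3.06 in treated H1299, 1.77 in control HCT116 and 1.54 in treated HCT116. The order of libraries was that of DDX58, and within each line the intervals of the treated and control libraries overlapped. A numbered feature of IFIH1 was listed in control HCT116 alone, with 16 of 111 counts. Without it IFIH1 had 95 and 60 counts in HCT116 and a log2 ratio of 0.02. The order of the HCT116 libraries then reversed, and IFIH1 no longer reached 100 counts in that line. Its log2 ratios were -0.18 (-0.46 to 0.11) in H1299 and -0.20 (-0.68 to 0.26) in HCT116, the latter 0.03 relative to the median gene. No change in either of these helicases was detectable in HCT116 at this depth, where the intervals allow changes up to their bounds.

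DHX58, the regulatory helicase LGP2 (chr17:42101404-42112733, minus strand), was the one member of this family with a much higher level after treatment, and it was so in both lines. It had 0.186 CPM in control H1299 (12 counts), 2.50 in treated H1299 (156), 1.18 in control HCT116 (74) and 6.32 in treated HCT116 (246). No 2 of these intervals overlapped, and the treated HCT116 library was highest. The ratio was 13.4-fold in H1299 (log2 3.75, 2.90 to 4.73) and 5.35-fold in HCT116 (2.42, 2.04 to 2.81), at the 93.6 and 91.7 percentiles of genes. DHX58 counts were divided between a feature with no number and a numbered feature, which the sources used here do not explain and which is listed only from 10 counts per library. The numbered feature was not listed in control H1299, and held 65 of 156 counts in treated H1299, 39 of 74 in control HCT116 and 115 of 246 in treated HCT116. On the unnumbered feature alone the H1299 log2 ratio was 2.97, with 91 counts in the treated library, and DHX58 then no longer reached 100 counts in that line.

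TLR3, the endosomal sensor (chr4:186069152-186088069, plus strand), was at the edge of detection. It had 9 counts in control H1299, 23 in treated H1299, 2 in control HCT116 and 5 in treated HCT116, which is 0.139, 0.368, 0.0319 and 0.128 CPM. The treated library was the higher of each pair. The log2 ratio was 1.40 (0.24 to 2.70) in H1299, and in HCT116 it was 2.01 with an interval from -0.60 to 5.40 that includes no change.

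MAVS, the adaptor shared by RIG-I and MDA5 (chr20:3846799-3876123, plus strand), was lower after treatment in both lines. It had 49.3 CPM in control H1299, 34.2 in treated H1299, 42.6 in control HCT116 and 23.9 in treated HCT116. The intervals of the 4 libraries did not overlap. The log2 ratios were -0.53 (-0.61 to -0.45) and -0.83 (-0.94 to -0.72), and lay at the 24.0 and 25.7 percentiles of genes, so changes of this size were common in both comparisons.

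EIF2AK2, the kinase PKR (chr2:37099210-37157065, minus strand), was lower after treatment in both lines and stood near the bottom of all ratios. It had 68.2 CPM in control H1299 and 69.2 in control HCT116, which did not differ beyond counting error, then 27.1 in treated H1299 and 10.2 in treated HCT116. Each treated library was below both controls, and treated HCT116 was the lowest. The level was 2.52-fold lower in H1299 (log2 -1.33, -1.41 to -1.25) and 6.80-fold lower in HCT116 (-2.77, -2.92 to -2.62), at the 2.7 and 0.8 percentiles of genes. This gene carries a match to the interferon element in the window printed above, and 30 CpG. The share of its counts in its numbered feature was 14.0% and 22.4% in control and treated H1299, and 22.4% and 37.6% in HCT116, so the counts left after treatment lay more in that feature in both lines. The annotated gene GPATCH11 overlaps EIF2AK2 on the opposite strand. The sources used here do not say whether the counting used strand. GPATCH11 had 1944 and 2070 counts in H1299 and 1300 and 2232 in HCT116, in the order control and treated. Whether any EIF2AK2 counts came from that strand was not tested.

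ADAR, the editing enzyme (chr1:154582057-154628013, minus strand), had 96.3 CPM in control H1299, 58.7 in treated H1299, 122 in control HCT116 and 38.6 in treated HCT116. HCT116 was the higher line under DMSO and the lower one under DAC+SB. The log2 ratio was -0.71 (-0.77 to -0.65) in H1299 and -1.66 (-1.74 to -1.58) in HCT116, at the 15.8 and 6.7 percentiles of genes. A numbered feature of ADAR was listed in treated HCT116 alone, with 160 of 1503 counts (10.6%). Without it the HCT116 log2 ratio was -1.82.

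ZBP1 (chr20:57603846-57620576, minus strand), which binds Z-form RNA and DNA and can trigger necroptosis, had 1 count in control H1299, 13 in treated H1299 and 0 in both HCT116 libraries. The limit for a count of 0, taken as the value of 3 counts, was 0.0479 CPM in control HCT116 and 0.0771 in treated HCT116. In H1299 the ratio of 13.4 had an interval of 1.01 to 9.16 on the log2 scale, and the 13 counts lay in 12 of 3726 cells.

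MB21D1, the DNA sensor cGAS (chr6:73413515-73452276, minus strand), was detected in 1 line and not in the other under DMSO. It had 1795 counts in control H1299 (27.8 CPM), 670 in treated H1299 (10.7), 0 in control HCT116 and 40 in treated HCT116 (1.03). Both H1299 libraries lay above both HCT116 libraries, and the limit of 3 counts in control HCT116 lies 581-fold below control H1299. With treatment MB21D1 was 2.59-fold lower in H1299 (log2 -1.37, -1.50 to -1.25, the 2.4 percentile of genes). In HCT116 it was 21.5-fold higher (4.42) with the 0 set to 3 counts, a bound that leaves out counting error. The HCT116 counts were spread over 34 of 4327 cells, with at most 2 in a cell, and the level was 10.4-fold below the treated H1299 library. DDX43 overlaps MB21D1 on the opposite strand and had 104 and 1673 counts in H1299 and 1 and 494 in HCT116, in the order control and treated. DDX43 was thus higher after treatment in both lines, whereas MB21D1 was lower in H1299 and higher in HCT116. Whether any MB21D1 counts came from that strand was not tested. No numbered feature of MB21D1 was listed in any library, and the bound assumes that none was left unlisted in control HCT116.

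TMEM173, the adaptor STING (chr5:139475534-139482935, minus strand), was higher after treatment in H1299 and lower in HCT116. It had 3.19 CPM in control H1299, 4.02 in treated H1299, 6.71 in control HCT116 and 1.41 in treated HCT116. The HCT116 libraries were the highest and the lowest of the 4, and the intervals of the H1299 libraries overlapped. The log2 ratio was 0.33 (0.06 to 0.61) in H1299 and -2.25 (-2.68 to -1.84) in HCT116, at the 68.4 and 2.2 percentiles of genes. A numbered feature was listed in control HCT116 alone, with 70 of 420 counts, and without it the HCT116 value was -1.98. In HCT116, where MB21D1 was detected in the treated library alone, TMEM173 was 4.75-fold lower after treatment.

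Each line has its own DMSO library, so the line difference in log2 ratio (H1299 minus HCT116) shares no control. It was 2.58 (2.09 to 3.06) for TMEM173, 1.43 (1.26 to 1.60) for EIF2AK2, 1.33 (0.40 to 2.26) for DHX58, 0.94 (0.84 to 1.04) for ADAR and 0.31 (0.17 to 0.44) for MAVS. For DHX58 it was 0.55 (-0.39 to 1.5) without the numbered feature not listed in control H1299, and 0.38 (-0.64 to 1.40) on the unnumbered feature alone in every library, so the line difference depended on that feature. The interval included 0 for DDX58 (-0.22, -0.67 to 0.24), IFIH1 (0.03, -0.51 to 0.56) and TLR3 (-0.61, -3.22 to 2.01). EIF2AK2 and ADAR were therefore lower after treatment in both lines and by more in HCT116, the line whose treated library also had the fewest counts per cell. The part of that depth in the difference was not tested. For MAVS the line difference depended on the scaling, since relative to the median gene of each line its log2 ratios were -0.46 in H1299 and -0.60 in HCT116. For ADAR the line difference was 0.78 centred on the median gene and 1.11 on unnumbered features. Both lie outside its interval, so its size but not its sign depended on scaling and features.

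**Figure D2:**
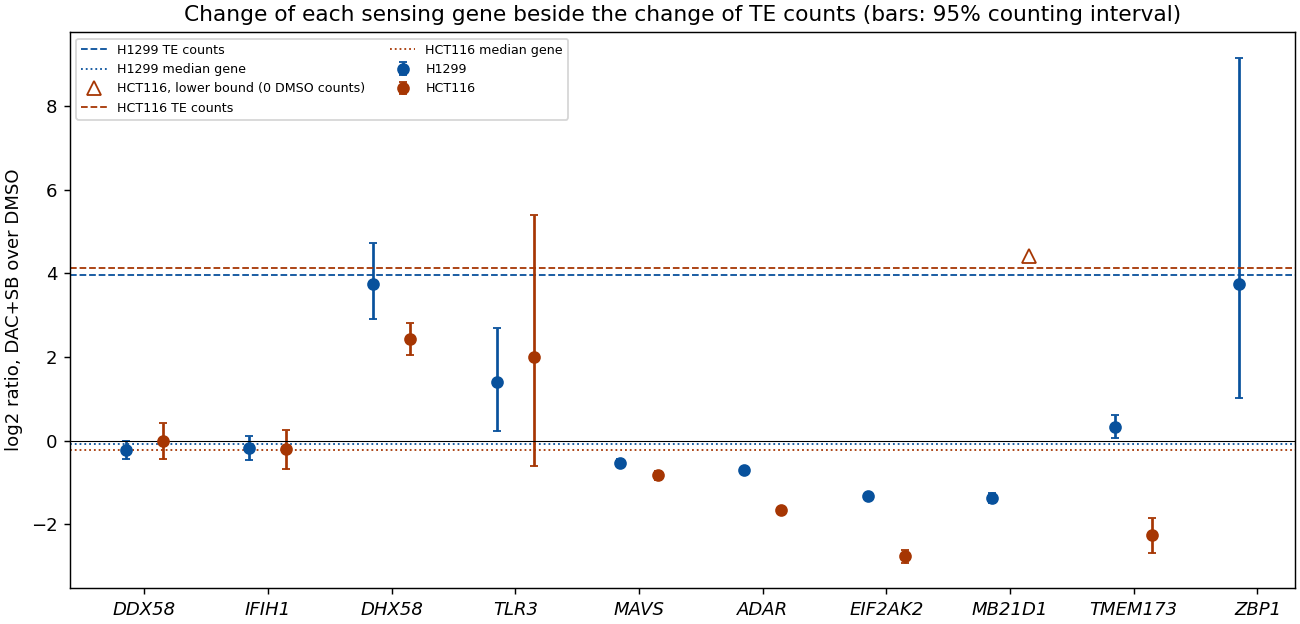
Log2 ratio of DAC+SB over DMSO for each sensing gene in H1299 (blue) and HCT116 (red) with 95% counting intervals; dashed lines give the ratio of TE counts and dotted lines the median gene of each line. DHX58 is at 3.75 in H1299, where the TE line is at 3.96, and at 2.42 in HCT116, where it is at 4.12. MAVS, ADAR and EIF2AK2 lie below the median gene in both lines. The open triangle is the bound of 4.42 for MB21D1 in HCT116, with the 0 set to 3 counts and without counting error.

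The CPM of TE was 15.6-fold higher after treatment in H1299 (log2 3.96) and 17.4-fold in HCT116 (4.12), while the sensing genes summed to less. The TE counts carry a start-site label (TSS) and may not cover all TE RNA. The 10 genes together went from 255 to 147 CPM in H1299 (log2 -0.80, -0.84 to -0.76) and from 245 to 85.1 in HCT116 (-1.53, -1.58 to -1.47). For each count of a sensing gene there were 7.78 TE counts in control H1299 and 211 in treated H1299, and 13.0 and 654 in HCT116. These sums rest on few genes, since ADAR, EIF2AK2 and MAVS held 81.8% to 95.2% of the counts of the 10 in the 4 libraries. The RIG-I-like helicases alone (DDX58, IFIH1 and DHX58) did not follow the sum of the 10. They were at 10.4 CPM in control H1299 and 11.3 in treated H1299 (log2 0.12, -0.03 to 0.28), and went from 4.95 to 9.84 in HCT116 (0.99, 0.77 to 1.21), where DHX58 held 74 of 310 and 246 of 383 helicase counts. TE counts per helicase count went from 191 to 2732 in H1299 and from 645 to 5656 in HCT116.

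To compare cells at equal depth, each was thinned to 3300 counts, which left out 402 cells of treated HCT116 and none elsewhere. A count of ADAR was found in 26.1% and 17.3% of H1299 cells and in 31.2% and 10.8% of HCT116 cells, in the order control and treated. EIF2AK2 was found in 19.2% and 8.37% of H1299 cells and in 19.4% and 3.64% of HCT116 cells, MAVS in 15.1% and 11.5%, and 13.0% and 7.29%. The intervals of these shares did not overlap between treatment and control within a line. Unthinned, ADAR was found in 72.6%, 54.0%, 76.7% and 25% of cells and EIF2AK2 in 62.9%, 31.5%, 59.3% and 7.74%, in the order control H1299, treated H1299, control HCT116 and treated HCT116.

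DHX58 was found in 0.0279% and 0.671% of thinned H1299 cells and in 0.273% and 1.96% of thinned HCT116 cells. Unthinned, its shares were 0.335%, 3.73%, 1.86% and 5.18%, in the order of libraries given for ADAR. MB21D1 was found in 7.69% and 3.46% of thinned H1299 cells, in 0 of 3658 control HCT116 cells, and in 0.357% of treated HCT116 cells. Unthinned, its shares were 34.9%, 14.8%, 0% and 0.786%. The value of 3 cells in 3658 is 0.0820%, a limit on cells with a count and not on cells that express the gene. A share of cells with a count can include free RNA, and no cell type that lacks these genes was present in the same libraries to measure it.

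DDX58 was found in 2.52% and 1.72% of thinned H1299 cells and in 0.683% and 0.764% of thinned HCT116 cells, and TMEM173 in 1.37% and 1.58%, and 2.32% and 0.510%. Thinned cells without a count of any of the 10 genes made up 45.4% of control H1299, 62.3% of treated H1299, 45.7% of control HCT116 and 76.6% of treated HCT116. Cells with counts of at least 3 of them made up 2.40%, 0.886%, 1.18% and 0.0764% in the same order. At equal depth, a treated cell therefore carried counts of fewer of these genes in both lines. This rests mainly on ADAR, EIF2AK2 and MAVS, the most abundant of the 10. DHX58 in both lines and MB21D1 in HCT116 were found in a larger share of treated than control cells, with intervals that did not overlap.

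Cells of each library were then ranked by the TE share of their counts and divided into 4 equal bins, and the sensing genes were summed per 1000000 gene counts, so that TE counts are not in the base. In treated HCT116 the 10 genes together were lower in the highest TE bin than in the lowest, at 73.0 against 101 (log2 -0.46, -0.61 to -0.32), where the median gene was at -0.12. EIF2AK2 had the largest difference of the 4 genes with at least 100 counts in these 2 bins together, at 14.2, 9.63, 11.4 and 6.74 from the lowest to the highest bin. Its log2 ratio of highest over lowest was -1.07 (-1.55 to -0.61), at the 0.6 percentile of 10121 genes. MAVS was at -0.60 (8.6 percentile), ADAR at -0.41 (20.8) and DHX58 at -0.13 (-0.71 to 0.44). Depth and mitochondrial share moved with the bins: the median was 9986 counts and 15.8% mitochondrial counts in the lowest bin and 7406 and 20.8% in the highest. With the TE share taken after thinning, EIF2AK2 was at -0.94 and the 10 genes at -0.40. The part of mitochondrial share in this pattern was not tested beyond leaving out cells over 25% mitochondrial counts, where the values were -0.91 and -0.48.

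In treated H1299 the differences were smaller, with 162 against 142 for the 10 genes (log2 -0.19, -0.27 to -0.11) beside a median gene at -0.10. MB21D1 stepped down with each bin, at 13.8, 11.2, 10.0 and 9.12, a log2 ratio of -0.60 (-0.92 to -0.28) at the 6.8 percentile of 12259 genes. EIF2AK2 was at -0.35 (22.5 percentile) and ADAR at -0.21 (37.1 percentile), so differences of this size were common among genes. MAVS (0.07) and TMEM173 (0.23, -0.32 to 0.78) did not differ beyond counting error. Here the depth of the lowest and highest bins was similar, at medians of 16110 and 15753 counts per cell. The median mitochondrial share was 8.31% in the lowest bin and 9.15% in the highest.

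Under DMSO, where TE made up little of each cell, the 10 genes were slightly higher in the highest bin, by 0.09 (0.03 to 0.16) in H1299 and 0.13 (0.06 to 0.19) in HCT116, beside median genes at 0.07 and 0.08. TMEM173 in control H1299 was at 1.19 (0.59 to 1.81), but only at 0.31 when the TE share was taken after thinning. DDX58 in control H1299 was at 0.54 (0.13 to 0.95) and at 0.49 after thinning. Cells of 1 library are not replicates, so these bins describe the libraries.

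**Figure D3:**
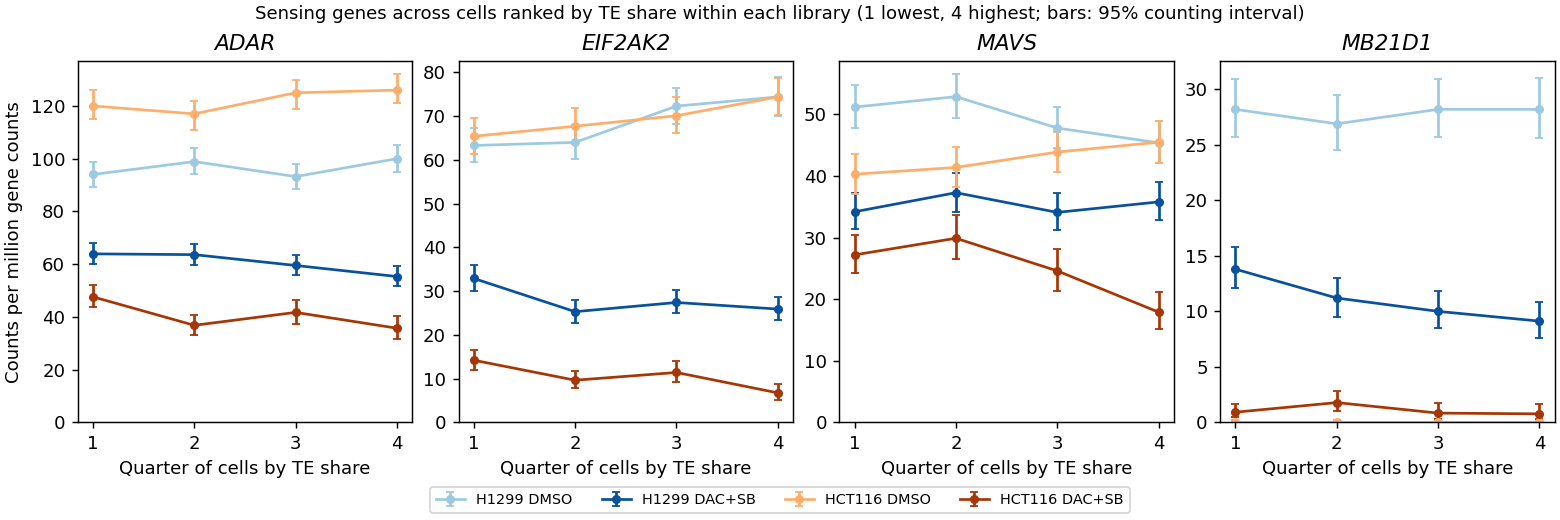
Counts per 1000000 gene counts of ADAR, EIF2AK2, MAVS and MB21D1 in 4 equal bins of cells ranked by TE share within each library, from 1 (lowest) to 4 (highest), with 95% counting intervals. In HCT116 DAC+SB, EIF2AK2 goes from 14.2 in the lowest bin to 6.74 in the highest, and in H1299 DAC+SB MB21D1 goes from 13.8 to 9.12. In both DMSO libraries EIF2AK2 is higher in the highest bin, at 74.4. Its log2 ratios of highest over lowest there are 0.23 in H1299 and 0.19 in HCT116. These lie at the 71.5 and 70.9 percentiles of genes, so such differences are common.

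Cells were also ranked by the share of their gene counts in 30 interferon-stimulated genes that include none of the 10, and divided into bins as above. ISG15, IFITM2 and IFITM3 held 61.7% to 72.8% of the list's counts in the 4 libraries, and so carry much of this ranking. IFITM2 was at log2 ratios of -0.13 and -0.78 with treatment, and IFITM3 at -0.09 and -0.11, in the order H1299 and HCT116, whereas ISG15 was higher in both. The 10 genes together were lower in the highest bin than in the lowest in control and treated H1299 (log2 -0.15 and -0.18) and in control HCT116 (-0.11), and at -0.14 (-0.29 to 0.00) in treated HCT116. ADAR was at -0.35, -0.35, -0.19 and -0.23, and MAVS at -0.33, -0.40, -0.08 (-0.24 to 0.08) and -0.31, in the order control H1299, treated H1299, control HCT116 and treated HCT116. TMEM173 was higher in the highest bin in control H1299 (1.61, 0.99 to 2.27), treated H1299 (0.61, 0.07 to 1.16) and control HCT116 (0.50, 0.10 to 0.90), at the 99.4, 96.0 and 97.9 percentiles of genes. DDX58 was at 0.73 (0.27 to 1.20) in treated H1299 and at 0.39 (-0.00 to 0.80) in control H1299. The interval of EIF2AK2 included 0 in each library.

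Depth and mitochondrial share moved with this ranking too. The median went from 16079 counts in the lowest bin to 17630 in the highest, and from 8.99% to 7.51% mitochondrial counts, in control H1299. In control HCT116 it went from 16011 to 15407 counts and from 16.4% to 15.3%. It went from 13506 to 17526 counts and from 10.2% to 7.81% mitochondrial counts in treated H1299, and from 6933 to 8159 counts and 21.2% to 18.0% in treated HCT116. With the ranking made after thinning to 3300 counts, an alternative chosen after seeing the data, TMEM173 was at 0.88 in control H1299, 0.24 in treated H1299 and 0.28 in control HCT116. On that ranking the 10 genes together were at -0.03, -0.12, -0.07 and -0.08, with the libraries in the order given for ADAR above. ADAR was at -0.09, -0.15, -0.12 and -0.11, MAVS at -0.23, -0.29, 0.01 and -0.40, and DDX58 at 0.56 in treated H1299. The thinned ranking also rests on fewer counts per cell. The part of depth and mitochondrial share in these patterns was not tested beyond this and leaving out cells over 25% mitochondrial counts.

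Downstream of the sensors, the signalling list had 27 genes, of which 24 reached 100 counts in H1299 and 26 in HCT116. In HCT116 10 of 26 were at least 2-fold lower, against 20% of all genes, and 1 at least 2-fold higher, against 16.2%. Of the lower ones, NFKB1, RNF135, MLKL and MYD88 reached 100 counts in the control library alone. So did IRF5 and TBKBP1, named after their values were seen. The passing of these genes favours the direction in which they differ. In H1299 2 of 24 were lower, a share near the 7.34% of all genes, and 1 was higher, against 18.3%. IRF7, the inducible factor downstream of MAVS, was the higher one in both, at log2 2.46 (2.30 to 2.62) and 3.94 (3.82 to 4.07). TBK1 and IRF3, which pass on the signal of MAVS and STING, were at -0.20 and -0.12 in H1299 and -0.13 and -0.18 in HCT116. Of the ubiquitin ligases that act on RIG-I, TRIM25 was at -0.84 and -1.20, RNF135 at -0.96 and -2.84, and RNF125, from the list of restraining genes and named after its values were seen, at -0.33 and -0.80. NFKB1, a subunit of NF-kB, was at -2.01 and -3.18. MLKL, the executor of necroptosis, was at -0.52 and -2.96. MYD88, the adaptor of other Toll-like receptors, was at -2.13 in HCT116 with 606 and 86 counts, and at 2.95 (1.88 to 4.23) in H1299 with 8 and 60.

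The list of 20 other sensors held 17 found genes, of which 9 and 10 reached 100 counts, with medians of -0.46 and -0.61. In H1299 none was at least 2-fold higher, against 18.3% of all genes, and 1 of 9 was lower (OAS3), against 7.34%. In HCT116 1 of 10 was higher (NLRP1), against 16.2%, and 3 were lower (OAS3, and HMGB1 and PRKDC, named after their values were seen), against 20%. The inflammasome sensor NLRP1 was at 2.84 in HCT116 (317 and 1408 counts) and at -0.03 in H1299. OAS3, a double-stranded RNA sensor named after its values were seen, was at -1.07 and -1.90, and in HCT116 it reached 100 counts in the control library alone. On the list of genes taken to restrain sensing was ADARB1, which encodes the editing enzyme ADAR2. Its H1299 and HCT116 log2 ratios were 2.14 (1.99 to 2.30) and 1.48 (1.29 to 1.67), opposite in sign to ADAR. Whether ADAR2 restrains sensing in these cells was not tested. SAMHD1, which cleaves deoxynucleotides, was at 0.67 and 0.41, and NLRX1, a mitochondrial inhibitor of MAVS, at -0.54 and -2.32. In HCT116 NLRX1 had 516 and 64 counts and reached 100 in the control library alone, so its passing favours the direction in which it differs. TREX1, the DNase that limits cGAS, had 0 counts under its own name in every library. The joined name it shares with ATRIP had 105 and 167 counts in H1299 (log2 0.72) and 355 and 159 in HCT116 (-0.47). The 17 restraining genes with 100 counts in each line had medians of 0.04 and 0.12. At least 2-fold higher were 2 in H1299 and 3 in HCT116, against 18.3% and 16.2% of all genes. At least 2-fold lower were 1 and 3, against 7.34% and 20%.

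Interferons themselves were rare. IFNL1 had 0 and 74 counts in H1299 and 2 and 72 in HCT116, in the order control and treated, and IFNB1 had 0 and 1, and 0 and 34. These are at least 4.67 on the log2 scale for IFNL1 in H1299, 5.86 (3.95 to 8.93) in HCT116, and at least 4.19 for IFNB1 in HCT116. STAT2, a transducer of interferon receptors, was at 0.23 and 0.02. The receptor gene IFNGR2 was at -0.92 in H1299 and -2.31 in HCT116. Its partner IFNGR1, named after its values were seen, was at 0.12 and 0.97 (0.85 to 1.10). Of this list of interferons, receptors and transducers, 9 genes in H1299 and 10 in HCT116 reached 100 counts. At least 2-fold higher were 0 in both, against 18.3% and 16.2% of all genes. At least 2-fold lower were 0 of 9 and 2 of 10, against 7.34% and 20%. IRF9 had most of its counts under joined names and was at -0.24 and -0.96 with them.

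Of 30 interferon-stimulated genes, 16 and 17 reached 100 counts, and 7 in each line were at least 2-fold higher, against 18.3% and 16.2% of all genes. At least 2-fold lower were 2 in H1299 and 3 in HCT116, against 7.34% and 20%. Of the higher ones, IFI27, IFIT1 and LGALS3BP in H1299 and IFI27, OASL and IFITM1 in HCT116 reached 100 counts in the treated library alone. Of the lower ones, PARP9 and PARP14 in HCT116 reached it in the control library alone. The passing of all these genes favours the direction in which they differ. ISG15, a ubiquitin-like modifier, was at 1.14 and 1.83, IFI6 at 1.51 and 1.09, IFI27 at 3.06 and 2.81 and IFIT1, which binds foreign RNA caps, at 2.92 and 1.88. In HCT116 OASL was at 2.93 and IFITM1 at 2.79, and in H1299 these had 0 and 20, and 5 and 71 counts. LGALS3BP was at 2.78 and -0.86, in the order H1299 and HCT116, and UBE2L6 at 2.31 and 0.71. MX1 had 15 and 43 counts in H1299 and 17 and 33 in HCT116. Below 100 counts in the other direction, both named after their values were seen, IFIT2 had 46 and 18 counts in H1299 (log2 -1.31, -2.18 to -0.49) and 11 and 9 in HCT116. IFIT3 had 48 and 14 in H1299 (-1.73, -2.70 to -0.85) and 18 and 4 in HCT116. The lower ones were PARP14 (-1.42 and -2.61), PLSCR1 (-1.64 and -1.81), named after its values were seen, and in HCT116 PARP9 (-0.79 and -2.09). The list's medians were 0.24 and 0.41, beside -0.38 and -0.83 for the sensing genes with 100 counts. With every ratio or bound included, they were 1.30 and 0.69 (28 and 27 genes), beside -0.20 and -0.20. Of the sensing genes that reached 100 counts, DHX58 alone was at a size like that of IFI27 and IFIT1. DHX58 reached that minimum in the treated library alone. Of those below it, ZBP1 in H1299 was at 3.75 (1.01 to 9.16) and TLR3 in HCT116 at 2.01 (-0.60 to 5.40). The bound for MB21D1 in HCT116 was 4.42, so this contrast rests partly on the minimum.

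**Figure D4:**
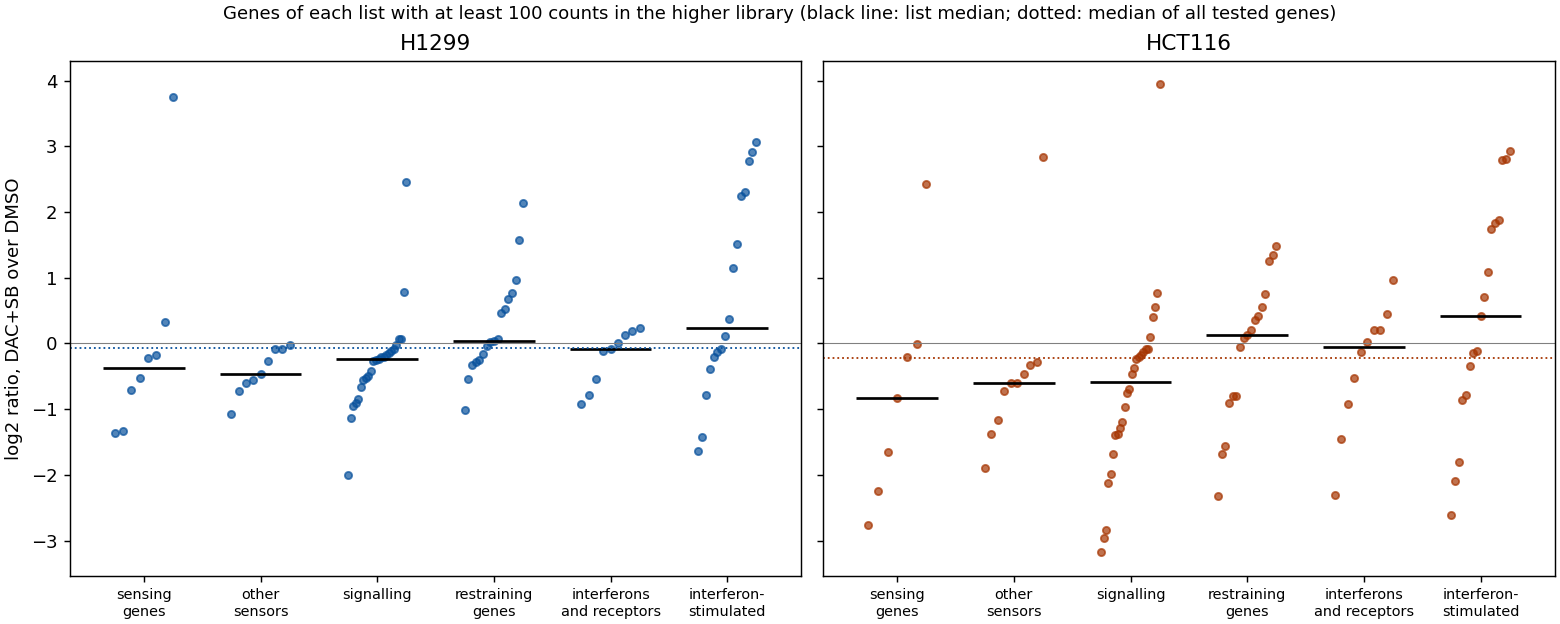
Log2 ratio of DAC+SB over DMSO, by list, of each gene that reached 100 counts in a library of the line, in H1299 (left) and HCT116 (right); black lines are list medians and dotted lines the median of all tested genes. The sensing genes have medians of -0.38 and -0.83, the interferon-stimulated genes of 0.24 and 0.41, and DHX58 is the single high point among the sensing genes shown. TLR3, ZBP1 (3.75 in H1299) and, in HCT116, MB21D1 (bound of 4.42) are not drawn. With every ratio or bound the sensing genes have a median of -0.20 in both lines.

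Genes with the pattern most like that of each member over the 4 libraries were named by the smallest distance between log2 levels centred on each gene's mean. With 4 libraries many genes can lie near any pattern. CCND1 was nearest to EIF2AK2 (distance 0.14), at -1.24 in H1299 and -2.60 in HCT116, followed by NFIA and DLG5 (0.17 each). MSL1 was nearest to ADAR (0.05), NFU1 to MAVS (0.02), SEM1 to IFIH1 (0.06) and RP11-680A11.5 to DDX58 (0.08). STAT6 was nearest to TMEM173 (0.22), with 420 and 463 counts in H1299 and 884 and 96 in HCT116. IL31RA was nearest to MB21D1 (0.28), with 578 and 266 counts in H1299 and 1 and 16 in HCT116, and FAM111B (0.47), with 0 counts in control HCT116 as well, came next. CTD-2587H24.5 was nearest to DHX58 (0.39), with 7 and 113 counts in H1299 and 38 and 169 in HCT116. These distances do not allow for counting error, and DHX58 had 12 counts in control H1299.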

How the data were processed

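The authors deposited whole-number counts of genes and of TE per cell in 2 tables, and each cell name carries its library's name. The gene counts are labelled all genic and the TE counts TSS, read here as transcription start site. Whether the TE counts cover all TE RNA was not tested. The labels place a cell barcode and a molecular identifier in read 1; the sources used here do not say whether the deposited counts are of identifiers, which strand was used or which annotation. STAR, CASAVA and GRCh38 (hg38) are named in the submitters' processing notes, without versions. Counts of a gene's features were summed per library and divided by gene plus TE counts (Python 3.11.15, pandas 2.3.3, scipy 1.17.1). Levels have exact Poisson intervals, ratios exact conditional binomial intervals, shares Clopper-Pearson intervals and line differences normal approximations, all at 95%. They cover counting error only, since 1 library per combination allows no test. A gene at 0 was set to 3 counts for a bound, which has no interval and leaves out counting error. No doublet caller was run; in 1 alternative the 5% deepest cells were dropped. Thinning used a hypergeometric draw to 3300 counts. The calculation of ratios was tested on simulated data. Gene positions and overlapping genes come from GENCODE 29.

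The members and lists were chosen with earlier results of these data known. Beside the 10 genes, the text names genes of each list with at least 100 counts and a log2 ratio of at least 2 or at most -2, up to 4 per line and direction, plus fixed pathway genes, and up to 3 genes most like a member. A gene of the fixed pathway genes is not reported here. Alternatives changed the denominator, centring, features, minimum, fold and cells used. Leaving out cells with a shared barcode, and the alternatives for the ranking by interferon-stimulated genes and for the line difference, were chosen after seeing the data.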

Additional observations from a re-analysis of the deposited data

Results flagged for a closer look

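The log2 ratio of MB21D1 was -1.37 in H1299 and at least 4.42 in HCT116, opposite signs in the 2 lines. The HCT116 value rests on 40 counts against 0. The log2 ratio of TMEM173 was 0.33 in H1299 and -2.25 in HCT116, also opposite in sign. With 1 library per combination neither difference was tested against replicate spread.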

How the results depend on the processing

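Of 170 alternative values of the 19 log2 ratios of the sensing genes, 8 are of the bound for MB21D1 in HCT116, which has no interval and ranged from 4.21 to 4.65. Of the other 162, 148 stayed within the counting interval, 8 moved beyond it and 6 changed sign. The sign changes were of values near 0 in HCT116. DDX58 was at 0.07 with gene counts as denominator, 0.12 without mitochondrial and ribosomal protein genes, 0.22 centred on the median gene and 0.16 as a mean over cells. IFIH1 was at 0.03 centred and 0.02 over features listed in both libraries of the line. DHX58, EIF2AK2, ADAR, MAVS and MB21D1 kept the direction of their ratios in both lines under every alternative run. The line difference of IFIH1, near 0, was -0.01 with gene counts as denominator, -0.04 without mitochondrial and ribosomal protein genes, -0.13 centred, -0.20 over features listed in both libraries, on unnumbered features or as a mean over cells, and -0.01 without shared barcodes. With TE share taken after thinning, the highest over the lowest bin was -0.45 for IFIH1 in H1299 DMSO, in place of 0.02. ADAR in H1299 DMSO was at -0.02 in place of 0.09, and TMEM173 in HCT116 DMSO at -0.02 in place of 0.06. With interferon-stimulated counts thinned, the 10 genes in H1299 DMSO were at -0.03 in place of -0.15. MAVS in HCT116 DMSO was at 0.01 in place of -0.08. DHX58 in HCT116 DAC+SB was at 0.22 in place of -0.28 (-0.82 to 0.27). That -0.28 lay at the 10.4 percentile of genes, and its sign was thus not settled. EIF2AK2 in H1299 DAC+SB was at 0.03 by this ranking. It was at -0.11 with the counts thinned and at -0.01 without cells over 25% mitochondrial counts.

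Over features listed in both libraries, 0 sensing genes were at least 2-fold higher in H1299, because DHX58 fell under 100 counts. At 4-fold, 0 were lower in H1299. Genes at least 4-fold higher in H1299 numbered 1612, or 2673 at 2-fold, 3992 with a minimum of 20 counts and 404 with a minimum of 500. Those lower numbered 51, or 1072 at 2-fold and 117 with a minimum of 20. In HCT116 those higher numbered 1304, or 2192 at 2-fold, 3466 and 326 with minimums of 20 and 500, and 794 over features listed in both libraries. Those lower numbered 500, or 2706 at 2-fold. The TE log2 ratio was 3.80 in H1299 and 4.02 in HCT116 over TE classes listed in both libraries, and 4.05 in HCT116 without cells over 25% mitochondrial counts. The cause of these shifts was not tested where the setting itself does not give it. Low counts limit TLR3 and ZBP1, and 0 counts leave MB21D1 in HCT116 as a bound. No paired analysis was possible because each combination was 1 library and the labels carry no replicate numbers.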
